A study of Mus musculus with 2 samples.

Results

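Nodal signalling in mouse embryonic stem cells was described here through 6 genes chosen by symbol, Nodal, Lefty1, Lefty2, Tdgf1, Smad7 and Skil, out of 32285 listed genes. All 6 passed a filter of 10 CPM (counts per 1000000 UMIs of the library) as the mean of both libraries, as did 8063 genes in all. The cells were E14 mouse embryonic stem cells of the 129/Ola background, grown on gelatin in medium with 15% serum and leukaemia inhibitory factor. One library came from cells transfected with control siRNA (control) and the other from cells transfected with siRNA against Son (sonKD), which encodes an RNA-binding protein of nuclear speckles. Both were harvested 24 h after transfection, frozen, thawed, sorted by exclusion of the dye 7-AAD and barcoded with 10x Genomics Single Cell 3' v3 chemistry. Lipofectamine2000 carried the siRNA in both groups, and nothing in the labels says whether the flasks were replicated. Each group held 1 library, so an effect of the knockdown and a difference between libraries cannot be told apart, no test was made, and all intervals are 95% intervals that cover counting error only.

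Nodal is a secreted ligand of the TGF-beta family that signals through activin receptors with Tdgf1 (Cripto), a membrane-anchored co-receptor, and phosphorylates Smad2 and Smad3, which act on chromatin with Smad4 and Foxh1. The pathway induces its own inhibitors. Lefty1 and Lefty2 are secreted antagonists that bind the ligand and co-receptor, Smad7 blocks the activated receptor, and Skil (SnoN) is a co-repressor that binds Smad proteins. In embryonic stem cells and the early epiblast the pathway is active, and Lefty1 and Lefty2 are among its direct targets.

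A barcode was taken as a cell from 2500 unique molecular identifiers (UMIs, each marking 1 captured molecule) and 1000 genes upward, if mitochondrial UMIs made up no more than 10%. There were 4978 control cells with a median of 7738 UMIs and 2731 sonKD cells with a median of 11612, and only 2 cell barcodes occurred in both libraries. Barcodes left out for over 10% mitochondrial UMIs were 11.2% of those at that depth in control and 27.9% in sonKD. Son itself had a level of 169 CPM in control against 106 CPM in the knockdown library, a log2 ratio of -0.67 (-0.73 to -0.61). All 7 pluripotency markers looked for were present, with a summed level of 7863 CPM in control and 8656 CPM in sonKD. The higher sum came from Dppa5a (5027 and 6075 CPM), whereas Pou5f1 had a log2 ratio of -0.27, Nanog -0.15, Esrrb -0.11, Sox2 -0.07, Zfp42 -0.05 and Utf1 0.00017. Summed markers of primitive endoderm came to 4.82 and 3.87 CPM, of mesoderm and primitive streak to 4.52 and 4.43 CPM, of trophectoderm to 6.38 and 8.87 CPM, and of fibroblasts to 0.611 and 0.531 CPM. Fibroblast markers stood at 0 for 2 of 5 genes in control and 3 of 5 in sonKD, and trophectoderm markers for 1 of 5 in each, while no marker of the other lists was at 0.

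Lefty1 and Lefty2 are neighbouring paralogs, and how alike their transcripts are decides how far their counts can be separated. On GRCm38, in GENCODE M21, Lefty2 (ENSMUSG00000066652, 4 exons) lies at chr1:180893108-180899103 and Lefty1 (ENSMUSG00000038793, 4 exons) at chr1:180935022-180938400, both on the plus strand and 35.9 kb apart. Their coding sequences are of equal length, 1104 bases, and 91.8% identical. Over the last 500 bases, the part a 3′ library reads, 2.44% of the 50-base words of Lefty1 also occur in Lefty2, and 0% of those of Lefty2 occur in Lefty1. Reads from these ends are therefore largely distinct, while over whole transcripts 17.9% and 11.6% of the words are shared.

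No other member shares 50-base words with another gene over its last 500 bases. Nodal (ENSMUSG00000037171, 3 exons) lies at chr10:61417972-61425338, Tdgf1 (ENSMUSG00000032494, 6 exons) at chr9:110939603-110946158 on the minus strand and Skil (ENSMUSG00000027660, 7 exons) at chr3:31095058-31122577. Tdgf1 shares 12.5% of its 50-base words with the pseudogene Tdgf1-ps1, which is not among the listed genes. Smad7 (ENSMUSG00000025880) has 4 exons. None of the 6 overlaps another annotated gene. The treatment of intronic reads is not given in the sources used here, so for Smad7 and Skil, whose introns are long, unspliced molecules may be part of the counts.

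Promoters, as 250 bases before to 50 bases after the start in RefSeq on GRCm38.p6, were at hand for Nodal and Tdgf1. They were searched on both strands for the Smad box, CAGAC, and for a loose form of the Foxh1 motif, AATNNACA, where N is any base. The letters do not overlap in the matches found. Tdgf1 held 1 match to the Smad box and 2 to the loose Foxh1 form, both AATTTACA. These are matches of letters only, and binding was not tested. The 150 bases before its start, chr9:110946159-110946308 on the minus strand, are shown because both kinds of match lie close together in it, with the matches in capitals.
Tdgf1: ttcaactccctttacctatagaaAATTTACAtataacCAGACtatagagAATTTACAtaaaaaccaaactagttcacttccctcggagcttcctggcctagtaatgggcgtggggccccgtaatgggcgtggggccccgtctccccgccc
Among all 32851 promoters of this length, 49.6% held the Smad box, 12.2% at least 1 match to the loose Foxh1 form and 1.43% at least 2. The Nodal window held neither, which says only that these letters are not in this window.

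All 6 genes had lower CPM in sonKD than in control, by widely different amounts (plot of levels by library). So did most genes, since the upper quartile of the log2 ratios of all 8063 genes was 0.00035. Lefty2 and Lefty1 stood lowest relative to control, Nodal and Skil were intermediate, and Smad7 and Tdgf1 were near the level of most genes. Of the 6 genes, 3 were lower by at least 0.32 on the log2 scale, the limit used for a call (Lefty2, Lefty1 and Nodal), and 0 were higher. Among all 8063 genes, 10.2% were lower and 3.5% were higher by that much. The median log2 ratio of the 6 was -0.34, beside -0.12 over all 8063 genes. The lower side of that background depends on scaling. With edgeR's TMM factors, which shift all log2 ratios up by 0.090, 4.6% of genes were lower and 5.57% higher, and 2 of the 6 genes (Lefty2 and Lefty1) were past the limit. On that scale Tdgf1 was at 0.014 and the other 5 genes remained below 0.

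**Figure D1:**
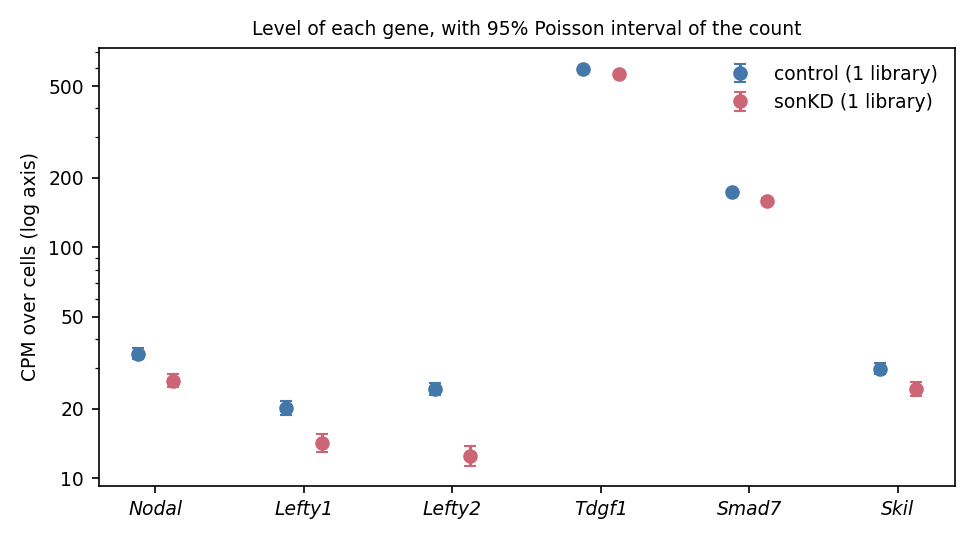
Level of the 6 genes in CPM (log axis), from counts summed over 4978 control cells and 2731 sonKD cells, 1 library each. Bars are 95% Poisson intervals of the counts. On the log axis the widest gap is that of Lefty2, at 24.4 and 12.5 CPM. The ratios of Smad7 and Tdgf1 are near the median of all 8063 genes.

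Nodal, the ligand, was counted 1419 times among control cells, a level of 34.7 CPM (32.9 to 36.5). Among sonKD cells 849 UMIs made up 26.5 CPM (24.8 to 28.3). This is 76.4% of the control level, or -0.39 as a log2 ratio (-0.51 to -0.26). At an equal depth of 2500 UMIs a cell, which leaves out no cell, Nodal was seen in 8.68% of the control cells (7.91 to 9.49) but in 6.81% of the knockdown cells (5.89 to 7.82). Without thinning the order was the opposite, 23.1% in control and 25.3% in sonKD, whose cells had more UMIs. Near-empty droplets (100 to 500 UMIs), taken as free RNA, contained Nodal at 19.9 CPM in control against 18.4 CPM in sonKD, and the part of free RNA in the share of positive cells was not tested. No cell type without these genes was at hand as a background.

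The antagonist Lefty2 was at 24.4 CPM (22.9 to 25.9) from 996 control UMIs, whereas the knockdown library gave 401, that is 12.5 CPM (11.3 to 13.8). Its log2 ratio of -0.96 (-1.13 to -0.79) put sonKD at 51.4% of control, and only 6 of the 8063 genes had a lower ratio. Across the cell filters, scalings and thinning tried, its place from the lowest ratio lay between 3 and 19 and the log2 ratio between -1.06 and -0.84. At 2500 UMIs Lefty2 was seen in 5.04% of the control cells (4.45 to 5.69) against 2.64% of the knockdown cells (2.07 to 3.31), or -2.41 percentage points (-3.27 to -1.51). Without thinning the shares were 13.6% and 9.04%, so the deeper library still had the lower share. The level in free RNA moved the same way, 9.15 CPM (7.82 to 10.6) in control and 2.63 CPM (1.94 to 3.47) in sonKD. Barcodes with over 10% mitochondrial UMIs held Lefty2 at 17.7 CPM (12.3 to 24.6) and 6.31 CPM (4.002 to 9.47). Lefty2 was thus lower in sonKD among cells, among free RNA and among the barcodes left out.

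Its paralog Lefty1 was at 20.2 CPM (18.8 to 21.6) from 826 control UMIs, against 14.2 CPM (13.0 to 15.6) from 456 in sonKD. The log2 ratio of Lefty1 was -0.50 (-0.67 to -0.34), less far from 0 than that of Lefty2, and the counting intervals of the ratios do not overlap. Both genes were spread unevenly over cells (below), so these intervals are too narrow for that gap to rank them. At 2500 UMIs the share of Lefty1-positive cells was 3.90% (3.38 to 4.47) in control against 2.93% (2.33 to 3.63) in sonKD, which is -0.97 percentage points (-1.80 to -0.093). With another random draw of the same UMIs the difference was -0.34 points, and averaged over all possible draws it was -1.16 points. The size of this difference thus hangs on which UMIs are drawn, and its sign was negative each time. Free RNA held Lefty1 in control at 14.0 CPM (12.3 to 15.8) against 7.29 CPM (6.12 to 8.63) in sonKD.

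Tdgf1, the co-receptor, was the most abundant of the 6, with 24281 control UMIs and 18038 in sonKD. Its level was 594 CPM (586 to 601) in the first and 563 CPM (555 to 571) in the second, a log2 ratio of -0.08 (-0.10 to -0.05) that is closer to 0 than the median of all genes. A Tdgf1 UMI was seen in most cells. Free RNA held Tdgf1 at 327 CPM (319 to 336) in control and 289 CPM (281 to 297) in sonKD. The part of free RNA in the share of positive cells was not tested. Without thinning 91.2% of control and 92.6% of sonKD cells had a Tdgf1 UMI, and at 2500 UMIs 69.2% and 67.7% did, a difference of -1.44 points whose interval (-3.64 to 0.74) included 0.

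Smad7, the receptor-level inhibitor, came to 173 CPM (169 to 177) in control on 7082 UMIs, and to 159 CPM (155 to 164) in sonKD on 5104. Its log2 ratio of -0.12 (-0.17 to -0.07) equals the median of all genes to 2 decimals. At 2500 UMIs the share of positive cells was 34.1% in control and 32.4% in sonKD, and the interval of the difference (-3.95 to 0.48 points) included 0. At 5000 UMIs, which leaves out shallower cells, the difference was -2.71 points (-5.15 to -0.26), without 0. Skil, the co-repressor, came to 29.9 CPM (28.2 to 31.6) in control on 1222 UMIs, against 24.4 CPM (22.8 to 26.2) in sonKD on 783, with a log2 ratio of -0.29 (-0.42 to -0.16). Its shares at 2500 UMIs were 6.83% and 6.19%, a difference of -0.64 points (-1.79 to 0.55). At 5000 UMIs the difference was -2.96 points (-4.56 to -1.33), so for both genes the reading depends on depth.

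The wider pathway was read from a list of 45 genes by role, of which 25 passed the 10 CPM filter. Of these 25, 5 were lower past the limit of 0.32 and 0 were higher, against the 10.2% and 3.5% of all genes given above, and their median log2 ratio was -0.22. The 5 were Lefty2, Lefty1 and Nodal together with the ligand Tgfb1 at -0.42 (-0.63 to -0.22) and the ubiquitin ligase Smurf2, which targets receptors and Smad proteins for degradation, at -0.34 (-0.46 to -0.21). Without the 6 described genes, 2 of 19 were lower. With TMM factors the 5 became 3, beside 4.6% of all genes. Outside the described genes the count past the limit is thus near the background.

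Among ligands and processing enzymes, Gdf3, a Nodal-related ligand, was at -0.02 (-0.09 to 0.05), Inhbb, the activin B subunit, at -0.25 and Pcsk6, a convertase that cleaves the Nodal precursor, at -0.26. The receptors lay close to or above the median of all genes, with Acvr1b at 0.06 (-0.13 to 0.26), Acvr2b at -0.10 and Tgfbr1 at -0.15. Of the transducers, Smad2 was at -0.22, Smad3 at -0.26, Smad4 at -0.05 and the Smad4-binding ubiquitin ligase Trim33 at -0.22. None of these 4 receptors and co-receptors, Tdgf1 included, or 4 transducers was past the limit.

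The 12 inhibitors at this level ranged widely. Pmepa1, a membrane protein induced by Smad signalling that sequesters receptor-activated Smads, was at 0.03 (-0.05 to 0.10), and the co-repressors Tgif1 at 0.05 and Drap1, which restrains Foxh1, at 0.06 were also on the upper side of 0. Below it were Ski at -0.19, Tgif2 at -0.22, the phosphatase Ppm1a at -0.24 and Smurf1 at -0.32. Against these, Lefty2 at -0.96 and Lefty1 at -0.50 were the lowest of the 12 inhibitors at 10 CPM, and Smad7 and Skil lay within the range of the others.

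Another 20 genes of the list were under 10 CPM. Gdf1, Cer1, Inhba, Acvr1c and Cfc1 had at most 8 UMIs in either library, and Foxh1 had 34 UMIs in control and 28 in sonKD. The 7 target transcription factors of primitive streak and endoderm were all low. Eomes, the highest, had 142 and 109 UMIs, and Foxa2, Gsc, Mixl1 and Lhx1 had at most 15. Dand5, a secreted Nodal antagonist, had 173 UMIs in control and 191 in sonKD, a log2 ratio of 0.50 (0.19 to 0.80) at a mean of 5.10 CPM, and is singled out here after its values were seen.

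**Figure D2:**
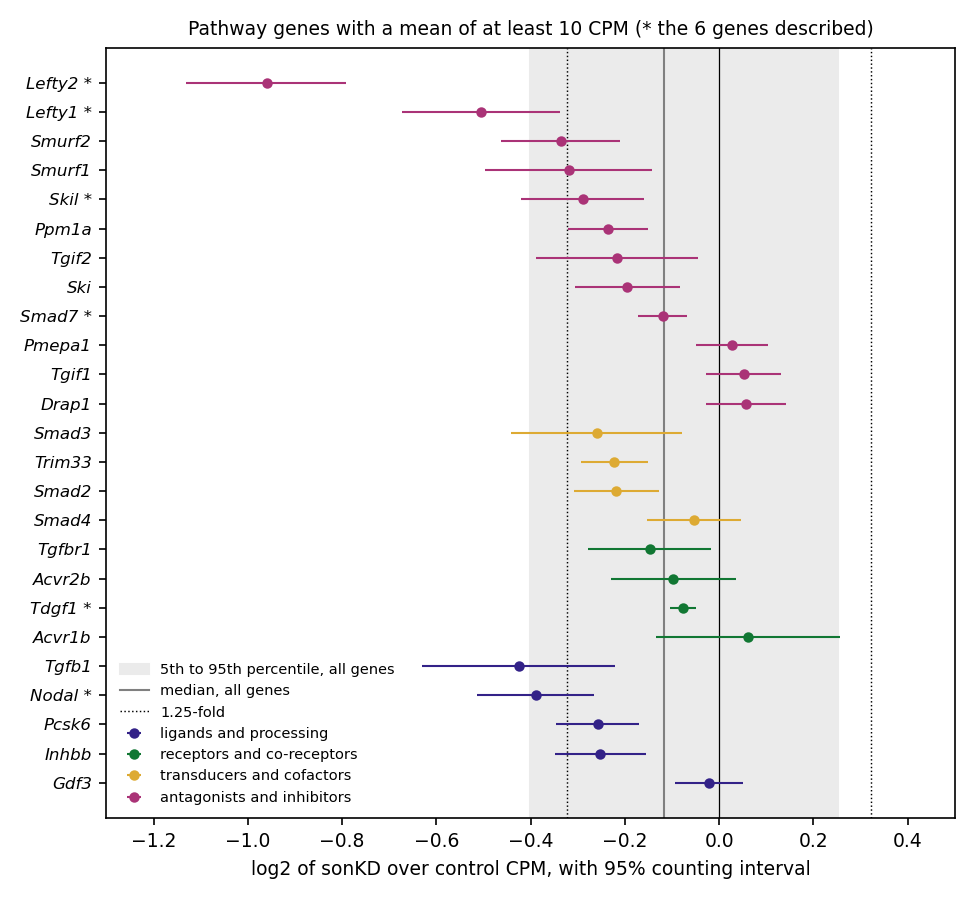
Log2 ratio of sonKD over control CPM for the 25 pathway genes that passed the 10 CPM filter, grouped by role, with 95% counting intervals. The grey band spans the 5th to 95th percentile of all 8063 genes (-0.40 to 0.25). Lefty2, Lefty1 and Tgfb1 lie below the band, and all other genes of the list lie inside it.

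How the transcripts were spread over cells was compared after thinning each cell to 5000 UMIs, which kept 4464 control and 2559 sonKD cells and left out 514 and 172 shallower ones. The variance of UMIs over their mean is 1 for counts that scatter at random. It was 1.95 for Lefty1 and 1.88 for Lefty2 in control, and 2.05 and 1.61 in sonKD. Ranked among all genes averaging 0.05 UMI a cell or more, Lefty1 ranked 47 and Lefty2 56 of 8096 in control, and 49 and 125 of 7926 in sonKD. The median gene was at 1.04 in both. The Lefty genes thus combined a low mean with some of the highest dispersion in either library.

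Nodal and Skil were spread more evenly. Nodal had a variance-to-mean ratio of 1.09 in control and 1.20 in sonKD, and Skil 1.06 and 1.02. Tdgf1 had 1.81 and 1.87 and Smad7 1.26 and 1.19, but this ratio can grow with the mean, which was 2.95 UMIs a cell for Tdgf1 and 0.0983 for Lefty1 in control. The Tdgf1 and Lefty values are therefore not on an equal footing.

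A small group of cells held many of the Lefty molecules. In control, 26 of 4464 thinned cells, or 0.582% (0.381 to 0.852), had at least 3 Lefty1 UMIs and held 24.1% of all Lefty1 UMIs. For Lefty2 it was 24 cells, or 0.538% (0.345 to 0.799), with 18.4% of the UMIs and a maximum of 14 in 1 cell. In sonKD, 9 cells had at least 3 Lefty1 UMIs, or 0.352% (0.161 to 0.667), and 8 had at least 3 Lefty2 UMIs, or 0.313% (0.135 to 0.615), with a maximum of 4. Without thinning, the 10 cells with most Lefty2 held 7.43% of its UMIs in control and 15.5% in sonKD. For Lefty1 they held 11.0% and 19.1%, against 1.16% and 1.72% for Tdgf1. With a variance above the mean, the Poisson intervals of the Lefty genes, and likewise of Tdgf1, are narrower than the spread over cells gives.

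The lower Lefty2 level in sonKD went with fewer positive cells. At 5000 UMIs, Lefty2 was seen in 9.09% of the control cells (8.27 to 9.98) against 4.49% of the knockdown cells (3.72 to 5.37). Positive cells had a mean of 1.32 Lefty2 UMIs in both libraries. For Lefty1, 7.12% (6.39 to 7.92) and 5.51% (4.66 to 6.47) of cells were positive, with 1.38 and 1.40 UMIs in each. At this depth most positive cells carry a single UMI, so a mean over positive cells has little room to differ.

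Of the 15 pairs among the 6 genes, Lefty1 with Lefty2 was the only one whose Pearson correlation over cells reached 0.1 in both libraries (plot of pair correlations). It was 0.22 over 4464 control cells and 0.20 over 2559 sonKD cells, on log1p of the UMIs at 5000 a cell. These cells share their library and the correlations are descriptions. The other 14 pairs lay between -0.073 and 0.076 in either library.

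**Figure D3:**
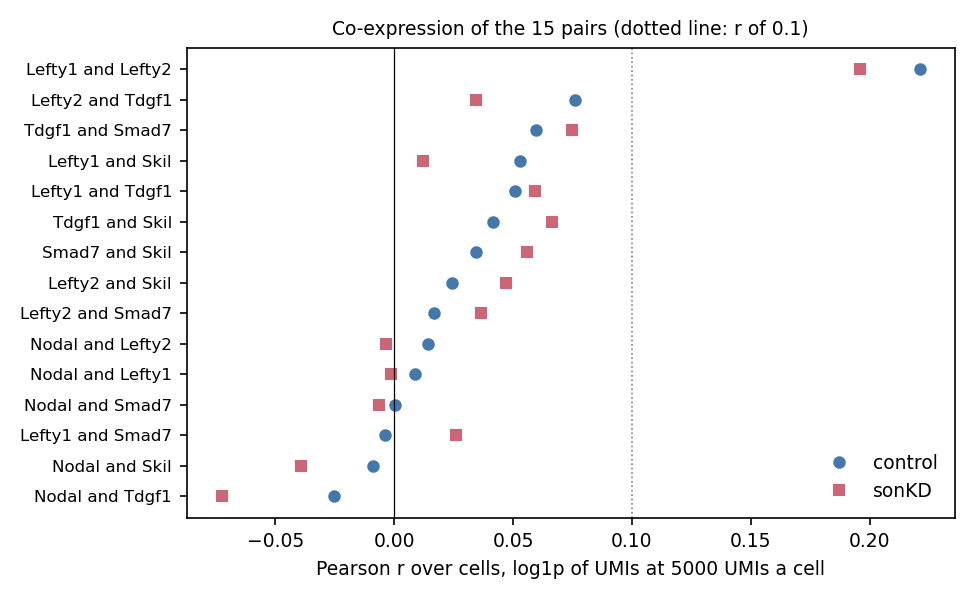
Pearson correlation over cells for the 15 pairs of the 6 genes, in control (circles, 4464 cells) and sonKD (squares, 2559 cells), each cell thinned to 5000 UMIs. Lefty1 with Lefty2 lies at 0.22 and 0.20, past the dotted line at 0.1, and every other pair lies below that line in both libraries.

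Both Lefty genes were found together in 79 control cells, where the product of their shares gives 28.9, and in 28 sonKD cells, where it gives 6.34. The excess was 2.73-fold in control and 4.42-fold in sonKD. It was graded. In control, Lefty2 was found in 7.89% of cells without a Lefty1 UMI (7.08 to 8.75), in 18.3% of cells with 1 (13.7 to 23.7), in 34.1% with 2 (20.1 to 50.6) and in 73.1% with at least 3 (52.2 to 88.4). The last group was 26 cells.

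In sonKD the corresponding shares were 3.598% of cells without Lefty1 (2.89 to 4.42), 17.6% with 1 UMI (10.9 to 26.1) and 27.3% with at least 2 (13.3 to 45.5). The intervals of the libraries overlapped among cells with 1 and with at least 2 Lefty1 UMIs, and did not overlap among cells without Lefty1. Seen from Lefty2, Lefty1 was found in 5.89% of control cells without Lefty2 (5.18 to 6.66) and 19.5% of those with it (15.7 to 23.6). In sonKD it was found in 4.62% (3.83 to 5.53) and 24.3% (16.8 to 33.2).

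**Figure D4:**
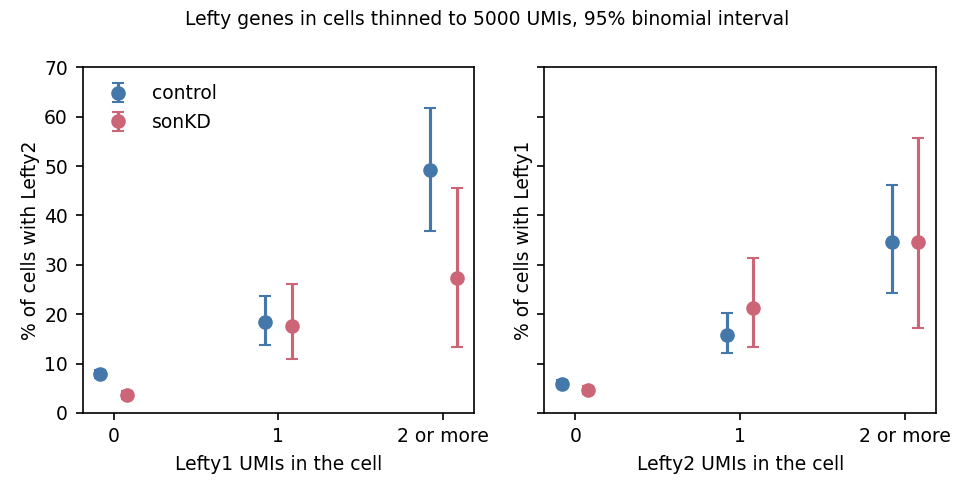
Share of cells with one Lefty gene by the number of UMIs of the other, in cells thinned to 5000 UMIs, with 95% binomial intervals, for control and sonKD. In control the share with Lefty2 goes from 7.89% in cells without Lefty1 to 49.3% in cells with at least 2 Lefty1 UMIs. In sonKD it goes from 3.598% to 27.3%.

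Nodal showed no such relation with its antagonists. In control, 7.32% of cells with a Nodal UMI (5.47 to 9.57) and 7.09% of cells without (6.29 to 7.95) had Lefty1. For Lefty2 the shares were 10.0% (7.85 to 12.5) and 8.93% (8.04 to 9.89). In sonKD they were 5.73% (3.43 to 8.91) and 5.48% (4.57 to 6.502) for Lefty1, and 4.14% (2.22 to 6.98) and 4.54% (3.72 to 5.49) for Lefty2. The 5 correlations of Nodal with the other members lay between -0.073 and 0.014. At a capture of 15.0% of control cells with Nodal, a relation weaker than these intervals was not detectable at this depth.

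Lefty2 was found more often in control cells with much Tdgf1. In control, Lefty2 was found in 4.66% of cells without Tdgf1 (3.04 to 6.80) and in 13.2% of cells with at least 6 Tdgf1 UMIs (10.6 to 16.2). In sonKD these shares were 3.75% (2.01 to 6.32) and 7.59% (4.87 to 11.2), with overlapping intervals. For Lefty1 they were 5.21% (3.49 to 7.45) and 8.54% (6.43 to 11.1) in control, and 3.17% (1.59 to 5.60) and 5.94% (3.56 to 9.23) in sonKD, with overlapping intervals in both libraries. By the same classes, Nodal was found in 16.2% (13.2 to 19.6) and 13.7% (11.1 to 16.8) of control cells. In sonKD it was found in 17.6% (13.7 to 22.0) and 13.2% (9.60 to 17.5), again with overlapping intervals in both libraries. Only with another measure and class, CPM in all cells with Tdgf1, did the intervals part in sonKD. There Nodal was at 47.3 CPM (37.6 to 58.7) in cells without Tdgf1 and 24.8 CPM (21.9 to 27.9) in cells with it. In control these levels were 37.6 CPM (30.6 to 45.7) and 33.3 CPM (30.8 to 36.0).

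The level of Nodal differed with the depth of the cell in both libraries. In control it was 53.2 CPM (47.6 to 59.2) in the first quartile of cells, those with fewest UMIs, and 30.1 CPM (27.4 to 32.9) in the last. In sonKD the values were 47.9 CPM (41.7 to 54.7) and 23.7 CPM (21.01 to 26.7). The median mitochondrial share in these quartiles was 4.58% and 3.41% in control, and 5.28% and 3.73% in sonKD. In the first quartile the intervals of the libraries overlap, and in the other 3 that of sonKD lies below that of control. The quartiles were cut within each library and differ in depth, with a median of 5281 UMIs in the first quartile of control and 7332 in that of sonKD. The second quartile of control, with a median of 7062 UMIs, was at 33.9 CPM (30.2 to 38.0), below the first of sonKD. Only these medians are alike, since the first quartile of sonKD also holds its shallowest cells, down to 2502 UMIs. Over cells of at least 5000 UMIs the log2 ratio of Nodal was -0.34. With each cell thinned to 2500 UMIs it was -0.32. Barcodes with over 10% mitochondrial UMIs held Nodal in control at 41.0 CPM (32.6 to 51.0) against 41.2 CPM (34.8 to 48.3) in sonKD. Nodal was therefore higher in shallow cells, which also had more mitochondrial RNA, and the part of cell quality in its level was not tested.

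In control Lefty2 had overlapping intervals at both ends of depth, with 25.5 CPM (21.6 to 29.8) in the first quartile and 22.5 CPM (20.2 to 25.1) in the highest. In sonKD it was at 9.23 CPM (6.65 to 12.5), 14.7 CPM (12.05 to 17.8), 16.1 CPM (13.5 to 19.0) and 9.85 CPM (8.13 to 11.8) from the first quartile to the last. This order is a description only. In each quartile the Lefty2 interval of sonKD lay below that of control. For Lefty1 this held only in the second quartile, at 23.2 CPM in control against 16.1 CPM in sonKD, and the last, at 20.1 against 10.9 CPM. The intervals overlapped in the first, at 16.6 and 14.7 CPM, and in the third, at 19.9 and 17.0 CPM. For both Lefty genes these Poisson intervals are narrower than the spread over cells gives. Skil stayed between 28.4 and 31.0 CPM in control and between 23.6 and 25.4 CPM in sonKD. Tdgf1 was lower in the shallowest quartile, at 522 CPM against 616 CPM in the deepest in control and 508 CPM against 567 CPM in sonKD, and Smad7 was higher there, at 196 CPM against 162 CPM and 182 CPM against 152 CPM.

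**Figure D5:**
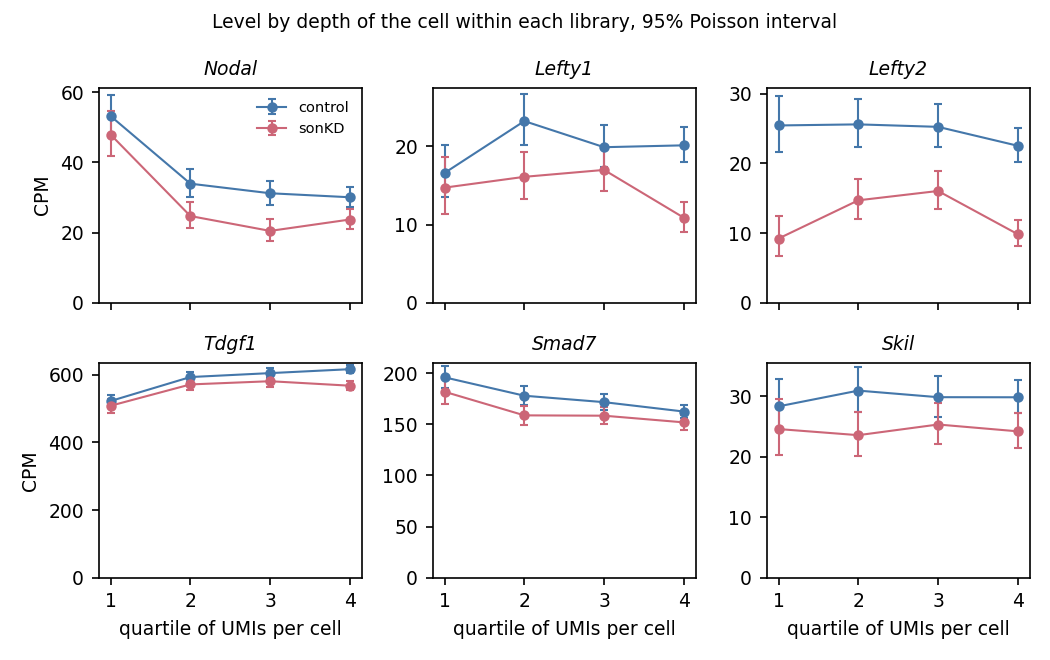
Level of each gene in CPM by quartile of UMIs per cell within each library (1 the shallowest, 4 the deepest), with 95% Poisson intervals, for control and sonKD. Nodal is highest in the first quartile (control 53.2 CPM, sonKD 47.9 CPM). For Lefty2 the interval of sonKD lies below that of control in all 4 quartiles, and for Lefty1 in the second and last only. For both Lefty genes these intervals are narrower than the spread over cells gives.

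For each gene, the 5 most alike genes were taken by Pearson correlation over control cells, and their correlation in the sonKD cells, which did not enter that choice, was read beside it. Genes entered with a mean of at least 0.1 thinned UMI in both libraries, which leaves Lefty1 and Lefty2 out of each other's lists. All of these correlations are weak, and the central 95% of all genes compared is given as a yardstick. For Lefty1 the central 95% of genes lay between -0.034 and 0.033 in control and between -0.043 and 0.046 in sonKD. Among the genes most like it was Ifitm1, an interferon-induced membrane protein, with r of 0.082 in control and 0.099 in sonKD, where it ranked 3 of 5740 genes. The ribosomal protein genes Rps14 and Rpl23 and the cytokine gene Mif were at 0.065 to 0.073 in control and 0.036 to 0.062 in sonKD, with Rps14 inside the central 95% there.

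The genes most like Lefty2 included the glucose transporter Slc2a1, Tdgf1, the annexin Anxa2 and the mitophagy gene Bnip3, at 0.069 to 0.080 in control and 0.024 to 0.036 in sonKD, inside the central 95% there. The leading values of Tdgf1 were above those of the other 5 genes in these lists. Tdgf1 was also the most abundant of these genes, with a central 95% of -0.055 to 0.058 in control and -0.068 to 0.072 in sonKD. It is therefore not on an equal footing with the sparser genes. Its 5 were the phosphofructokinase gene Pfkp, the uridine phosphorylase gene Upp1, Bnip3, Slc2a1 and the lactate dehydrogenase gene Ldha, at 0.18 to 0.20 in control. In sonKD they were at 0.13 to 0.19, where Ldha was first and Upp1 second of 5739 genes. Of these, Pfkp, Slc2a1 and Ldha act in glycolysis.

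Nodal was most like Ano3, an anoctamin gene, with 0.11 in both libraries. Pid1 was at 0.11 in control and 0.029 in sonKD, the p53-induced gene Phlda3 at 0.093 and 0.14, 2900052L18Rik at 0.088 and 0.062, and the p53-induced gene Trp53inp1 at 0.083 and 0.11. In sonKD Phlda3 ranked 2, Ano3 11, Trp53inp1 12, 2900052L18Rik 93 and Pid1 565. Smad7 was most like Exoc4, Pvt1, mt-Co3, Jarid2 and Malat1, at 0.12 to 0.15 in control and 0.027 to 0.12 in sonKD, where Jarid2, a subunit of Polycomb repressive complex 2, was first. The long noncoding RNAs Malat1 and Pvt1 and the mitochondrial mt-Co3 vary with the nuclear and mitochondrial RNA of a barcode, and their part in the relation was not tested. Skil had no correlation above 0.075 in control, with Pcmtd1, Magi1, Mbnl2, Auts2 and Tspan5 leading in control, and at 0.030 to 0.065 in sonKD.

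Pluripotency state was read from 19 genes for core, naive and formative pluripotency and BMP targets. None of the 114 correlations with the 6 members reached 0.1 or -0.1 in both libraries, and all lay between -0.092 and 0.13. The highest was that of Tdgf1 with Sox2, at 0.097 in control and 0.13 in sonKD. Fgf5, a formative marker, had no UMI in the thinned control cells and so gave no value there. Lefty1 and Lefty2 stayed between -0.058 and 0.026 with the 7 naive genes in control.

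Cells were also split by their own Son UMIs at 5000 UMIs a cell. In control, Lefty2 was at 27.4 CPM (24.2 to 30.8) in the 1996 cells with 0 Son UMIs and at 18.8 CPM (15.0 to 23.2) in the 915 cells with at least 2. In sonKD it was at 9.21 CPM (7.25 to 11.5) in 1628 cells and 13.1 CPM (7.89 to 20.5) in 290. Lefty1 was at 18.5 CPM (16.0 to 21.4) and 17.3 CPM (13.7 to 21.5) in control, and at 12.8 CPM (10.4 to 15.5) and 26.2 CPM (18.5 to 36.0) in sonKD. For Lefty2 the order of the Son classes was thus opposite in the 2 libraries, with overlapping intervals in sonKD. Smad7 went the other way from Lefty2 in control, at 169 CPM (161 to 177) and 201 CPM (189 to 215). In sonKD it was at 156 CPM (147 to 164) and 173 CPM (152 to 196), with overlapping intervals. For Nodal, Tdgf1 and Skil the intervals of the Son classes overlapped in both libraries. For both Lefty genes these Poisson intervals are narrower than the spread over cells gives. The differences between Son classes are therefore descriptions only, in control as in sonKD.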

How the data were processed

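The members and gene lists were chosen with earlier results of these data known. The files deposited by the authors are matrices of raw UMI counts made with Cell Ranger 7.1.0, per the file headers, with mm10 named in the submitters' processing notes. They list 1408944 control and 1400093 sonKD barcodes with no selection of cells. All 6 members, the pathway genes at a mean of at least 10 CPM, the fixed state genes and the 5 most alike genes per member are named in the text, with Dand5 added after its values were seen. Some genes and sequences under this rule are not reported here.

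Counts were summed over cells and divided by the library sum to give CPM. A count under 3 was set to 3 for log2 ratios of all genes. Counts have exact Poisson intervals, shares have Clopper-Pearson intervals, and ratios have exact intervals from the binomial split of both counts. Intervals of differences of shares combine both shares' bounds as a root of summed squares. Summed over cells, depth was 40902904 UMIs for control against 32032551 for sonKD. PCR duplicates are removed by UMIs, but cells of 1 library are not replicates.

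Cells were thinned without replacement with a fixed seed. Doublets were kept. Scrublet (scanpy 1.11.5) called 0.0603% of control and 0.0366% of sonKD cells, under the 0.5% of a working call, so the alternative removed the highest scores at 0.8% per 1000 cells. TMM factors came from edgeR 4.0.16. Ratios, intervals and thinning were tested on simulated data.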

Additional observations from a re-analysis of the deposited data

How the results depend on the processing

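No paired analysis was possible because each group held 1 library, so no test was made and no replicate could be left out. Of the 54 log2 ratios of the 6 genes under alternatives, 45 stayed inside the counting interval. Those of the 5 genes other than Tdgf1 were negative under all 9 settings. Tdgf1 turned to 0.014 with TMM factors and 0.0089 with the median of ratios, and moved to -0.0026 without mitochondrial and ribosomal protein genes and to -0.018 with cells thinned to 2500 UMIs. Smad7 moved to -0.030, -0.035 and -0.046 under the same 3 scalings, which raise all ratios alike. Nodal moved to -0.52 at a limit of 5% mitochondrial UMIs and Skil to -0.16 with thinned cells.

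The count of pathway genes lower past the limit, 5 of 25 in the report, was 3 under each of the 3 other scalings. Under these, 4.6% to 5.31% of all 8063 genes were lower and 5.13% to 5.57% higher. With no filter on level beyond 3 UMIs it was 10 of 41, with a filter of 50 CPM 0 of 10, and at 1.5-fold 1 of 25. The count of higher genes was 4 of 41 with no filter on level and 0 otherwise. For the changed filters and fold the share of all genes was not computed, so those counts have no background beside them. For the difference in positive cells, in percentage points, leaving out the thinning turned Nodal to 2.16, Tdgf1 to 1.36, Smad7 to 7.62 and Skil to 2.63, as sonKD cells were deeper, and put Lefty2 at -4.52. At 5000 UMIs it was -4.60 for Lefty2 and -2.96 for Skil, and at 5% mitochondrial UMIs -1.96 for Lefty1. The share expected over all draws was chosen after seeing the data. The number of pairs with a correlation of at least 0.1 was 1 under all 5 alternatives. For Lefty1 with Lefty2, r ranged from 0.14 to 0.22 in control and from 0.17 to 0.27 in sonKD. Depth limits the shares of Lefty1, Lefty2, Nodal and Skil, since most positive cells carry 1 UMI at 5000.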
